A study of Mus musculus with 6 samples.

Results

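The transcription factors that specify and maintain endothelium were followed as a set of 9 mouse genes, chosen by symbol: the SoxF genes Sox7, Sox17 and Sox18, the ETS genes Erg, Fli1, Ets1 and Etv2, and the basic helix-loop-helix genes Tal1 and Lyl1. All 9 were present among the 24421 gene symbols of the count tables, and 8 had enough counts to be tested. The mice were C57BL/6N, and the samples, labelled as whole embryo, were taken at embryonic day 9.5. There were 3 libraries labelled homozygous for a knockout (KO) of Lphn2, the gene of the adhesion receptor latrophilin-2 that is now called Adgrl2, and 3 libraries labelled wild type (WT). The labels give no construct, deleted region or litter, and do not say whether a library is 1 embryo. The libraries were 3' end tag libraries (Lexogen QuantSeq), in which a tag is read from the end of a polyadenylated transcript, and levels are given as CPM, counts scaled to the TMM-normalised size of each library.

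SoxF proteins bind DNA through an HMG box and act downstream of VEGF and Notch signals in vessels, where Sox17 is associated with arterial identity and Sox18 with lymphatic specification. Erg, Fli1 and Ets1 share the ETS domain, which recognises a GGAA core found in the control regions of many endothelial genes, and Etv2 is a transient factor at the top of the pathway from mesoderm to blood and endothelium. Tal1 (also called Scl) and its close relative Lyl1 form complexes with Lmo2, Gata factors and E proteins, and are needed in blood progenitors, with Tal1 also active in red cell precursors and in endothelium. Sox17 is in addition a factor of definitive and visceral endoderm, and Ets1 and Fli1 are also abundant in lymphoid cells.

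The 6 libraries held 14476809 to 23887717 counts in KO and 18352150 to 36213611 counts in WT. Adgrl2 itself was read at 5.49, 1.67 and 2.78 CPM in KO replicates 1, 2 and 3, against 10.9, 7.56 and 15.96 CPM in WT replicates 1, 2 and 3 (log2 fold change -1.78 ± 0.50 SE, edgeR adjusted p = 0.194). It was called lower with DESeq2 (adjusted p = 0.0203) and with edgeR without KO replicate 1 (-2.36, adjusted p = 0.0442), and its log2 fold change was -1.04 with KO replicate 1 alone against WT. A value with KO replicate 1 alone is given here and below without a p, since the WT libraries alone then supply the spread. A 3' tag can lie outside a deleted part, so this gene cannot serve as a check of genotype. The label "whole embryo" does not cover all that was read: Prl8a2, the decidual prolactin-related protein of the maternal lining, averaged 3171 ± 2041 CPM in KO and 20572 ± 7235 CPM in WT libraries (SD, n = 3 each). KO replicates 2 and 3 stood apart, with list medians for yolk sac, gut and trophoblast genes at -6.07 to -4.59 from the WT mean (log2), against -0.93 to 0.17 in KO replicate 1. In such mixed bulk samples, fewer cells of a type and less RNA per cell cannot be told apart, and maternal and embryonic vessels share the factors described here.

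None of the 8 tested members passed the threshold. In edgeR's quasi-likelihood test with Benjamini-Hochberg adjustment over 13848 genes, 0 members were higher and 0 lower at an adjusted p under 0.05, where 0.0% of all tested genes were called higher and 0.0505% lower. Before adjustment 5 members were higher in KO and 0 lower with p under 0.05, against 8.68% and 6.86% of all genes. Limma-voom likewise called 0 members, with 5 higher and 0 lower unadjusted, beside 9.01% and 5.7% of all genes unadjusted. DESeq2 called 0 members, where it called 3.39% of all genes higher and 2.79% lower. Its unadjusted counts were 5 members higher and 1 lower, beside 8.85% and 8.49% of all genes. The median log2 fold change of the 8 members was 0.66, and that of all genes tested was -0.039. The set was not of a piece: Sox17, Sox18, Erg, Fli1 and Ets1 had positive fold changes, and Sox7, Tal1 and Lyl1 negative ones, where 46.6% of all genes were positive. Only Ets1 had 3 KO values above all 3 WT values, a share of 1 in 8 beside 12.1% of all genes, and 0 members had all KO values below, beside 9.39%.

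**Figure D1:**
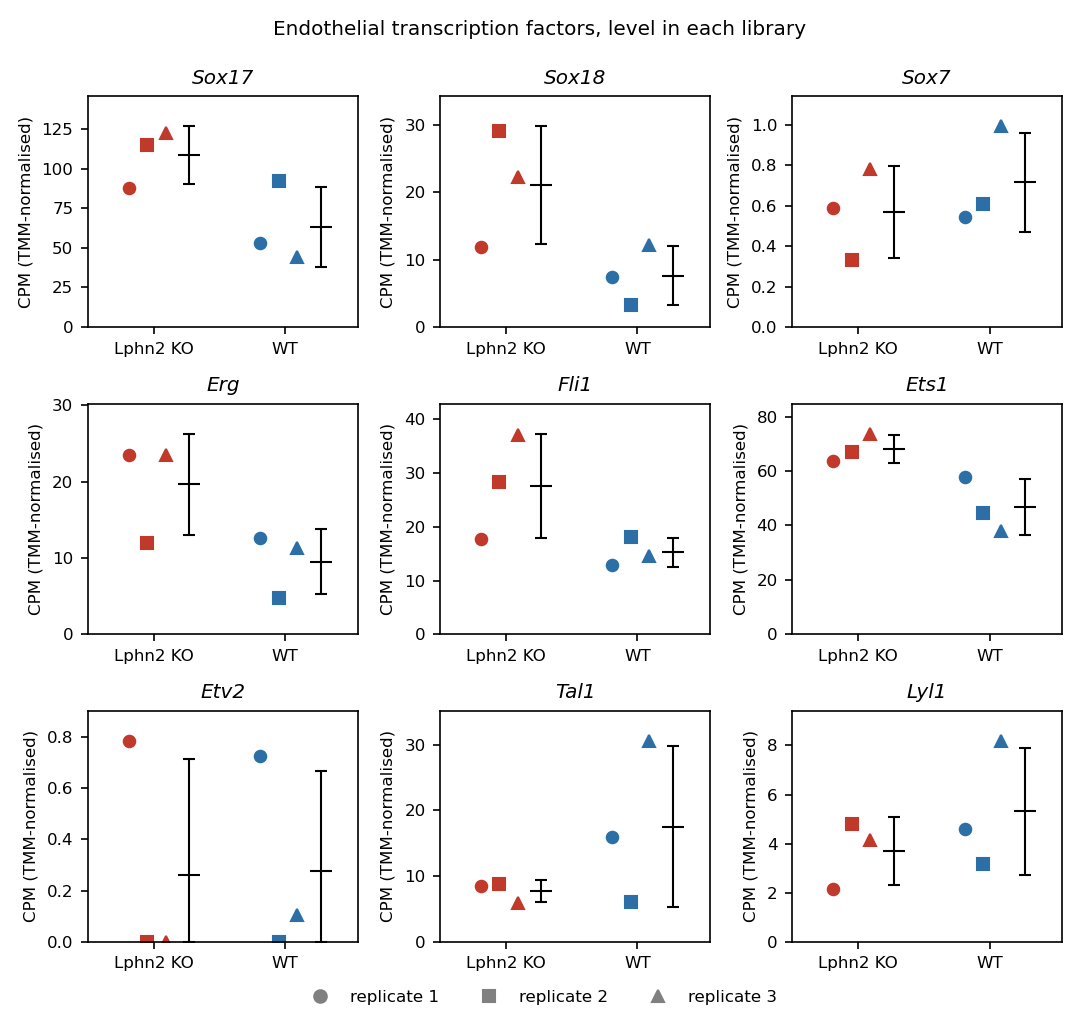
Level of each factor in TMM-normalised CPM (y axis, linear, from 0) in the 3 Lphn2 KO libraries (red, left) and the 3 WT libraries (blue, right). Each symbol is a library, marked by its replicate number, and the bar shows the mean and SD, with the SD bar stopped at 0. Ets1 is the panel without overlap, at 63.6 to 73.7 CPM in KO and 37.9 to 57.8 CPM in WT libraries.

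Among the SoxF genes, Sox17 (mm10 chromosome 1, 4490931 to 4497354, minus strand), the arterial and endodermal factor, had levels of 87.8, 115 and 123 CPM in KO replicates 1, 2 and 3, against 53.1, 92.0 and 44.4 CPM in WT replicates 1, 2 and 3. The groups overlapped through WT replicate 2 alone, which lay above KO replicate 1 and below the other KO libraries. Sox17 averaged 108 ± 18.3 CPM in KO and 63.2 ± 25.3 CPM in WT libraries, a 1.72-fold difference (log2 fold change 0.78 ± 0.30 SE, edgeR adjusted p = 0.282). Without WT replicate 2 its log2 fold change was 1.16 (adjusted p = 0.117), and with KO replicate 1 alone it was 0.49.

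Sox18 (chromosome 2, 181669836 to 181671640, minus strand), of early vessels and lymphatics, had levels of 11.8, 29.1 and 22.3 CPM in KO replicates 1, 2 and 3, against 7.43, 3.29 and 12.1 CPM in WT replicates 1, 2 and 3. KO replicate 1 and WT replicate 3 had nearly the same level, and the other KO libraries lay above every WT library. The means were 21.1 ± 8.70 CPM in KO and 7.60 ± 4.41 CPM in WT, and the 2.75-fold difference had the greatest size among the members (log2 fold change 1.46 ± 0.52 SE, edgeR adjusted p = 0.258). Its log2 fold change was 0.66 with KO replicate 1 alone and 1.95 without WT replicate 3 (adjusted p = 0.31), and its lowest adjusted p over the alternatives was 0.0717, with DESeq2.

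Sox7 (chromosome 14, 63943673 to 63950732, plus strand), a SoxF gene of the early haemangioblast and of endothelium, was close to the limit of detection. It had 15, 5 and 11 counts in KO replicates 1, 2 and 3, against 15, 10 and 38 counts in WT replicates 1, 2 and 3. This gave 0.569 ± 0.226 CPM in KO and 0.715 ± 0.243 CPM in WT libraries (log2 fold change -0.34 ± 0.69 SE, edgeR adjusted p = 0.836), and a difference was not detectable at this depth. The SoxF genes did not share a profile across libraries. After each gene was centred on its own mean log2 CPM, the root mean square difference over the 6 libraries was 0.961 between Sox17 and Sox18, while Sox17 differed from the ETS gene Fli1 by 0.274, the smallest value among the 28 pairs of members.

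Of the ETS genes, Ets1 (chromosome 9, 32636221 to 32757820, plus strand), the founder of the family, was read at 63.6, 66.9 and 73.7 CPM in KO replicates 1, 2 and 3, against 57.8, 44.7 and 37.9 CPM in WT replicates 1, 2 and 3. All KO libraries lay above all WT libraries, with the nearest values in KO replicate 1 and WT replicate 1. The means were 68.1 ± 5.14 CPM in KO and 46.8 ± 10.1 CPM in WT (log2 fold change 0.54 ± 0.20 SE, edgeR adjusted p = 0.267).

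Fli1 lies beside Ets1 on the same chromosome (chromosome 9, 32422204 to 32542861, minus strand). It was read at 17.6, 28.2 and 36.9 CPM in KO replicates 1, 2 and 3, against 12.9, 18.0 and 14.6 CPM in WT replicates 1, 2 and 3. KO replicate 1 fell inside the WT range, just under WT replicate 2, and KO replicates 2 and 3 lay above it. Its means were 27.6 ± 9.65 CPM in KO and 15.2 ± 2.60 CPM in WT (log2 fold change 0.86 ± 0.30 SE, edgeR adjusted p = 0.255). Without KO replicate 1 the log2 fold change was 1.10 (adjusted p = 0.0597, where 1.77% of all genes were called higher and 3.27% lower), and with KO replicate 1 alone it was 0.24.

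Erg (chromosome 16, 95359169 to 95586593, minus strand), the ETS factor of mature endothelial junctions, was read at 23.5, 12.0 and 23.5 CPM in KO replicates 1, 2 and 3, against 12.6, 4.75 and 11.3 CPM in WT replicates 1, 2 and 3. KO replicate 2 lay among the WT libraries, so Erg did not follow Fli1 from library to library. Its means were 19.7 ± 6.63 CPM in KO and 9.55 ± 4.21 CPM in WT (log2 fold change 1.04 ± 0.43 SE, edgeR adjusted p = 0.311). With KO replicate 1 alone the log2 fold change was 1.31, so that of the 5 members with positive fold changes, Erg had the greatest one in the KO library whose yolk sac, gut and trophoblast markers were nearest to WT. All 6 counts were multiples of 2 for Erg, Ets1 and Tal1, so the number of tags seen may be smaller, and the counting error larger, than the counts show.

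Etv2 (chromosome 7, 30633616 to 30635852, minus strand) had 20, 0 and 0 counts in KO replicates 1, 2 and 3, against 20, 0 and 4 counts in WT replicates 1, 2 and 3, all multiples of 4. It was not tested. A count of 0 allows up to 0.196 CPM in KO replicate 2, 0.207 CPM in KO replicate 3 and 0.163 CPM in WT replicate 2 of the total counts, for counting error only. These limits take 1 count as 1 tag. They would be higher if a tag adds more than 1 count, as the multiples of 4 would allow. Replicate 1 of each genotype held nearly all of its counts. RefSeq promoter windows, the 250 bases before an annotated start (GRCm38.p6), were at hand for Erg, Etv2, Tal1 and Lyl1. The upstream start of Erg (chr16:95586594-95586843, minus strand) and that of Etv2 (chr7:30635853-30636102, minus strand) are shown because they lie at opposite ends in the number of ETS cores, written in capitals as GGAA or, on the other strand, TTCC.
Erg: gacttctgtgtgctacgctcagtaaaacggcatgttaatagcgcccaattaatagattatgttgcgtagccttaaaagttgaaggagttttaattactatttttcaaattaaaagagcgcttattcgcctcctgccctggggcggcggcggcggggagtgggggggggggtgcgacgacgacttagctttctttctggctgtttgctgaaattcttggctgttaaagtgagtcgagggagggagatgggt
Etv2: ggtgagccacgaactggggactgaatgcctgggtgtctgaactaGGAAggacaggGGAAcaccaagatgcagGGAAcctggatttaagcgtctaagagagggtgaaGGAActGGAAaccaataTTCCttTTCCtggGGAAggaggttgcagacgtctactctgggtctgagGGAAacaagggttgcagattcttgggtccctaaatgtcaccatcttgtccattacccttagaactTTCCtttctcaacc
The Erg window held 0 GGAA cores, and its other annotated starts held 4 and 2. The Etv2 window held 10, a number reached by 0.192% of 32851 windows of this length, whose median was 3 and of which 93.4% held at least 1. A match of letters is a description of the sequence and not of binding.

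The basic helix-loop-helix pair had fold changes of the other sign. Tal1 (chromosome 4, 115056426 to 115071755, plus strand) was read at 8.55, 8.80 and 5.84 CPM in KO replicates 1, 2 and 3, against 15.9, 6.09 and 30.5 CPM in WT replicates 1, 2 and 3. The KO libraries lay close together and WT libraries were spread widely, with WT replicate 2 inside the KO range. The means were 7.73 ± 1.64 CPM in KO and 17.5 ± 12.3 CPM in WT (log2 fold change -1.18 ± 0.54 SE, edgeR adjusted p = 0.352). Its size turned on the WT libraries, at -0.51 without WT replicate 3 (adjusted p = 0.679) and -1.57 without WT replicate 2 (adjusted p = 0.123).

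Lyl1 (chromosome 8, 84701457 to 84704715, plus strand) was read at 2.16, 4.80 and 4.13 CPM in KO replicates 1, 2 and 3, against 4.60, 3.17 and 8.18 CPM in WT replicates 1, 2 and 3. The groups overlapped, with WT replicate 3 the highest and KO replicate 1 the lowest library. The means were 3.70 ± 1.37 CPM in KO and 5.32 ± 2.58 CPM in WT (log2 fold change -0.53 ± 0.48 SE, edgeR adjusted p = 0.625). The size depended on single libraries, at -0.090 without WT replicate 3 (adjusted p = 0.955), -0.25 without KO replicate 1 (adjusted p = 0.794) and -1.28 with KO replicate 1 alone. Lyl1 lies inside Nfix, a nuclear factor I gene on the opposite strand (84699876 to 84800344). The annotated 3' end of Nfix, at 84699876, lies outside Lyl1. How the counting treated strand is not given in the sources used here, and whether tags of Nfix were counted for Lyl1 was not tested. Nfix stood at 60.0, 133 and 125 CPM in KO replicates 1, 2 and 3, against 117, 38.1 and 187 CPM in WT replicates 1, 2 and 3. Like Lyl1 it was highest in WT replicate 3, but it was lowest in WT replicate 2, and Lyl1 in KO replicate 1.

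The promoter windows of Tal1 at its upstream start (chr4:115056176-115056425, plus strand) and of Lyl1 (chr8:84701207-84701456, plus strand) are shown for the ETS cores that each holds, in capitals as before.
Tal1: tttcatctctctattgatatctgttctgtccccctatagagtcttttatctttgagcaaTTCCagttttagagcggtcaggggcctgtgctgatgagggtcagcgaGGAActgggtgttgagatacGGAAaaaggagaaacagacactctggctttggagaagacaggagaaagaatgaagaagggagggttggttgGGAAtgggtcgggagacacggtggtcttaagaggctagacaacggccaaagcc
Lyl1: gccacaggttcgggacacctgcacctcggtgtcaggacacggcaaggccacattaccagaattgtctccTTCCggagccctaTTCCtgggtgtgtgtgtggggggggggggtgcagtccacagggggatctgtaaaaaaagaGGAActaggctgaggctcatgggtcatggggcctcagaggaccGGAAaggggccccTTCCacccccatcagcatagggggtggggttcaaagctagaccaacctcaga
Tal1 held 4 GGAA cores and Lyl1 held 5, numbers reached by 33.4% and 18.0% of windows. The GATA motif AGATAA was found 1 time in Tal1 and 0 times in Lyl1, with 9.99% of windows holding it, and the E-box CANNTG 0 times in Tal1 and 1 time in Lyl1, with 66.2% of windows holding it. The SOX motif ACAAT was found 0 times in Tal1 and 1 time in Lyl1, with 27.7% of windows holding it. Both strands were searched, and no match of 1 motif overlapped a match of another in these windows.

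**Figure D2:**
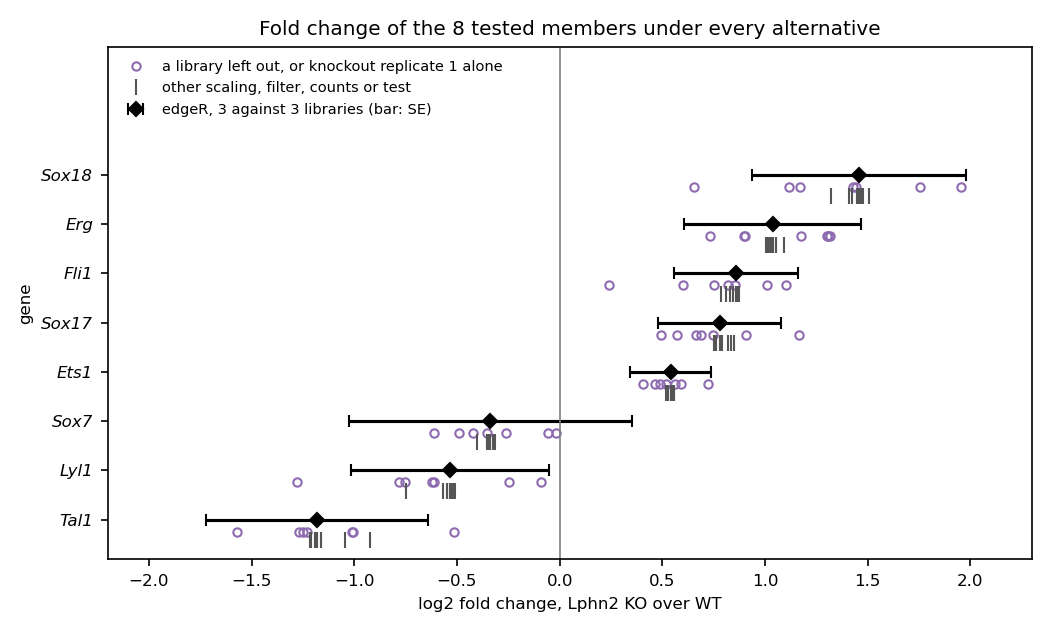
Log2 fold change of Lphn2 KO over WT (x axis) for the 8 tested genes (y axis). Diamonds with bars give the edgeR value and its SE over 3 against 3 libraries, open circles the values with a library left out or with KO replicate 1 alone, and ticks the values under other scalings, filters, counts and tests. The values of a gene all lie on 1 side of 0, though the SE bar of Sox7 spans it, and Sox18 runs from 0.66 to 1.95.

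Endothelial surface and signalling genes, and other transcription factors, were read from the same fit. Whether the members act on these genes was not tested. Of 33 endothelial surface and signalling genes, all tested, 29 had positive log2 fold changes and 4 negative ones, with a median of 0.73 against -0.039 for all genes. In edgeR 0 passed the threshold, while 18 were higher and 2 lower before adjustment (p under 0.05), and DESeq2 called 12 higher and 1 lower. Over all genes tested, 8.68% were higher and 6.86% lower unadjusted in edgeR, and DESeq2 called 3.39% higher and 2.79% lower. These shares are the background for each list below. Emcn, a surface sialomucin of venous and capillary endothelium, averaged 75.95 ± 16.3 CPM in KO and 33.5 ± 4.83 CPM in WT libraries (log2 fold change 1.18, edgeR adjusted p = 0.166), and Cd34, the sialomucin of progenitors and endothelium, averaged 420.4 ± 72.8 CPM in KO and 198 ± 36.8 CPM in WT libraries (1.09, edgeR adjusted p = 0.166). The summed level of the list was 4629, 5877 and 5027 CPM in KO replicates 1, 2 and 3, against 3340, 4079 and 2813 CPM in WT replicates 1, 2 and 3. Every KO library thus held more of these transcripts in sum than any WT library, which was so for 16 of the 33 genes singly. It went the other way for 2, Nrp2 (log2 fold change -1.10, edgeR adjusted p = 0.194) and Apln (-0.77, edgeR adjusted p = 0.313). Groups overlapped for Kdr, Flt1, Flt4 and Pecam1, with log2 fold changes of 0.045, -0.19, 0.26 and 0.25. The genes in these last sentences were named after their values were seen. Over all genes tested, 12.1% had all KO libraries above all WT libraries and 9.39% all KO libraries below.

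Other transcription factors of endothelium had a median log2 fold change of 0.39 (0.19 with KO replicate 1 alone), with 13 positive and 5 negative among 18 tested of 19. Here too 0 passed in edgeR, 6 were higher and 0 lower unadjusted, and DESeq2 called 2 higher. Klf4, a flow-responsive factor, stood at 291 ± 57.2 CPM in KO and 142 ± 33.1 CPM in WT libraries (log2 fold change 1.03, edgeR adjusted p = 0.172), and Nr2f2, the venous and decidual factor COUP-TFII, at 546 ± 38.6 CPM in KO and 354 ± 19.1 CPM in WT libraries (0.62, edgeR adjusted p = 0.176).

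The wider families were read in the same way. Of 22 other ETS genes, 17 were tested, 9 with positive and 8 with negative log2 fold changes (median 0.028, but -0.057 with limma-voom and -0.082 without KO replicate 1), and their summed level was 671 to 691 CPM in KO and 629 to 705 CPM in WT libraries. EdgeR called 0, with 0 higher and 1 lower unadjusted, and DESeq2 called 1 lower: Etv5, a target and effector of FGF signals, stood at 7.02 ± 1.12 CPM in KO and 16.8 ± 4.82 CPM in WT libraries (log2 fold change -1.26, edgeR adjusted p = 0.167). Elk1, a nuclear target of ERK, stood at 22.3 ± 2.54 CPM in KO and 17.5 ± 0.980 CPM in WT libraries (0.35, edgeR adjusted p = 0.414). Of 16 other Sox genes, 12 were tested, with 2 positive and 10 negative log2 fold changes (median -1.73, and -3.86 without KO replicate 1), 0 called by edgeR, 5 lower unadjusted and 3 called lower by DESeq2. Sox2, a factor of neural progenitors, was read at 0.549, 0.0667 and 0.0713 CPM in KO replicates 1, 2 and 3, against 4.75, 0.609 and 12.2 CPM in WT replicates 1, 2 and 3. Sox21, its neural relative, had 0 counts in every KO library, against 1.23, 0.853 and 4.81 CPM in WT replicates 1, 2 and 3. Sox1, Sox2, Sox3 and Sox11 are also on the neural progenitor list below. Fev had 0 counts in all 6 libraries.

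Partners of Tal1 and Lyl1 had 12 negative and 2 positive log2 fold changes among 14 tested of 16 (median -0.51). EdgeR called 0, with 0 higher and 2 lower unadjusted, and DESeq2 called 1 lower. Gfi1b, a repressor of red cell and megakaryocyte precursors, had 0 counts in every KO library, against 1.23, 1.58 and 5.70 CPM in WT replicates 1, 2 and 3. It was the gene called by DESeq2, and it is also on the primitive erythroid list below, so these lists are not separate. Tcf12, an E protein that pairs with Tal1, stood at 121 ± 5.20 CPM in KO and 193 ± 73.9 CPM in WT libraries (log2 fold change -0.67, edgeR adjusted p = 0.306).

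Each member was also set against the summed level of the 33 endothelial genes of its own library, on the log2 scale with a prior count of 2. In exact two-sided permutation tests over samples, whose smallest p with 3 against 3 is 0.1, no member reached it among 8 comparisons, with p between 0.2 and 1.0 and adjusted values between 0.48 and 1.0. Relative to those genes Ets1 stood at -6.24 ± 0.19 in KO and -6.19 ± 0.33 in WT libraries, a difference of -0.053, and Sox17 and Fli1 differed by 0.22 and 0.19. Sox18 differed by 0.94 and Erg by 0.48. Sox7, Tal1 and Lyl1 differed by -0.92, -1.52 and -1.09. With 1 library left out Sox18 ranged from 0.30 without WT replicate 2 to 1.49 without WT replicate 3, and Tal1 from -2.27 without WT replicate 2 to -0.85 without WT replicate 3. Lyl1 reached -0.60 without WT replicate 3, Sox7 reached -0.54 without KO replicate 2 and -0.56 without WT replicate 3, and Sox17 lay between 0.11 and 0.39, at 0.11, 0.14 and 0.14 without KO replicate 3, WT replicate 1 and WT replicate 3, and at 0.39 without WT replicate 2. The groups overlapped for all 8, and for Ets1, Fli1 and Erg the sign turned under an alternative setting or with 1 library left out. The sizes also depended on the reference. Against Cdh5, Pecam1 and Tie1 alone, Sox17, Fli1, Sox18 and Erg differed by 0.45, 0.42, 1.17 and 0.71. Against the same genes Sox7, Tal1 and Lyl1 differed by -0.69, -1.29 and -0.86, and Ets1 by 0.18. The summed CPM of this smaller reference was mostly Pecam1, which averaged 1000 CPM in KO and 841 CPM in WT libraries. Cdh5 averaged 267 and 161 CPM, and Tie1 11.9 and 5.54 CPM. Their log2 fold changes were 0.25 for Pecam1, 0.73 for Cdh5 and 1.11 for Tie1.

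The balance between members was looked at within libraries, after their values were seen. Of the 28 pairs of tested members, 8 (28.6%) had a ratio that did not overlap between the groups, and over every pair of the 13848 genes tested this held for 22.7%, so the share is near the background. The ratio of Sox18 to Lyl1 was 5.47, 6.06 and 5.40 in KO replicates 1, 2 and 3, against 1.61, 1.04 and 1.48 in WT replicates 1, 2 and 3. That of Erg to Tal1 was 2.74, 1.36 and 4.02 in KO, against 0.791, 0.780 and 0.370 in WT. Both were picked for their separation, so no test is given. The pairs share members and are not independent.

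**Figure D3:**
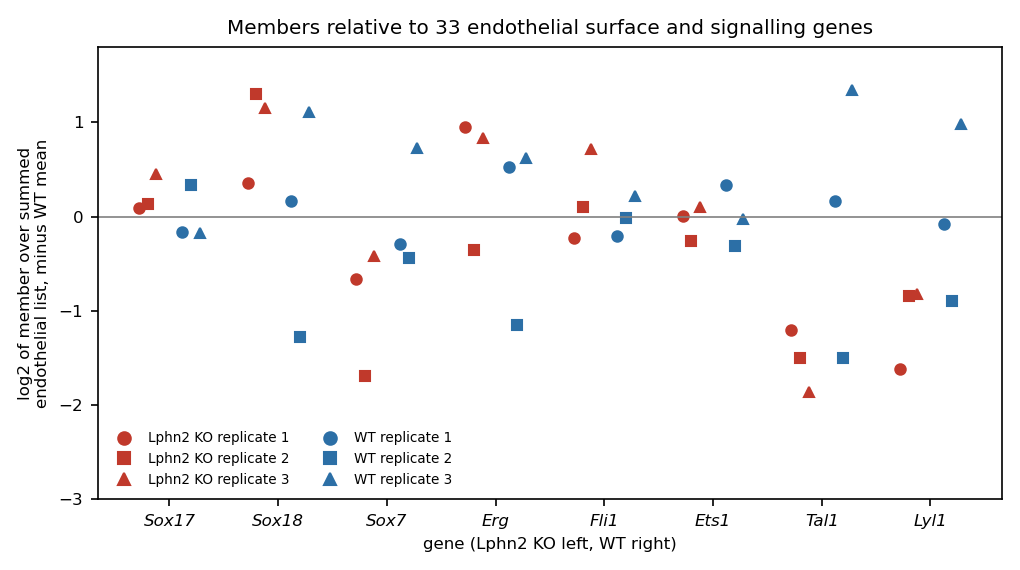
Log2 level of each member over the summed CPM of 33 endothelial genes in the same library, minus the WT mean (y axis), with Lphn2 KO libraries in red on the left and WT libraries in blue on the right of each gene. Symbols mark the replicate number. Ets1 lies around 0 in both groups, while the KO libraries of Tal1 lie near WT replicate 2 and below the other WT libraries.

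Markers of other cells that use these factors were read beside them. For these lists too, the shares over all genes were 8.68% higher and 6.86% lower unadjusted in edgeR. DESeq2 called 3.39% of all genes higher and 2.79% lower. Of 16 primitive erythroid genes, 15 were tested and all 15 had negative log2 fold changes (median -2.79), with 0 called by edgeR, 9 lower unadjusted and 5 called lower by DESeq2. Their summed level was 784, 86.8 and 60.2 CPM in KO replicates 1, 2 and 3, against 2285, 1945 and 1623 CPM in WT replicates 1, 2 and 3. Alas2, the enzyme that starts haem synthesis in red cells, stood at 29.7 ± 7.88 CPM in KO and 93.9 ± 24.7 CPM in WT libraries (log2 fold change -1.66, edgeR adjusted p = 0.164). The list median was -5.05 without KO replicate 1 and -1.35 with it alone. All 3 tested platelet and megakaryocyte genes of 6 had negative log2 fold changes (median -1.55), 0 called by edgeR, 2 lower unadjusted and 0 called by DESeq2. Pf4, platelet factor 4, stood at 2.14 ± 1.07 CPM in KO and 6.20 ± 3.78 CPM in WT libraries, and Ppbp, another platelet chemokine, at 0.280 ± 0.181 CPM in KO and 1.52 ± 1.20 CPM in WT libraries. The part of these cells in the values of Tal1 and Lyl1 was not tested.

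Lymphoid and myeloid markers bear on Ets1 and Fli1. All 11 tested natural killer and T cell genes of 12 had positive log2 fold changes (median 1.29), with 0 called by edgeR, 9 higher unadjusted and 6 called higher by DESeq2. The gene not tested was Cd3e, of T cells, with 0, 5 and 0 counts in KO replicates 1, 2 and 3, against 0, 0 and 2 in WT. These values therefore do not single out T cells. Their sum was 728, 1216 and 964 CPM in KO replicates 1, 2 and 3, against 365, 524 and 239 CPM in WT replicates 1, 2 and 3. Gzma and Gzmb, granzymes of cytotoxic cells, stood at 72.8 ± 18.4 and 123 ± 37.6 CPM in KO, and at 26.7 ± 6.60 and 42.3 ± 16.0 CPM in WT libraries. Of 12 macrophage genes, 9 had positive and 3 negative log2 fold changes (median 0.60), with 0 called by edgeR, 3 higher and 2 lower unadjusted, and 3 called higher and 1 lower by DESeq2. Ptprc, the CD45 antigen of all white cells, stood at 54.4 ± 9.37 CPM in KO and 22.8 ± 6.78 CPM in WT libraries, and Tyrobp, an adaptor of myeloid and natural killer receptors, at 31.1 ± 12.5 CPM in KO and 11.4 ± 2.06 CPM in WT libraries. Those lower at an unadjusted p under 0.05, named after their values were seen, were receptor genes of that list. Which cells their values came from was not tested. Csf1r, the receptor for the macrophage growth factor CSF1, stood at 110 ± 49.0 CPM in KO and 299.96 ± 138 CPM in WT libraries (log2 fold change -1.45, edgeR adjusted p = 0.221), with all KO libraries below. Mrc1, the mannose receptor, stood at 2.04 ± 0.777 CPM in KO and 5.18 ± 2.50 CPM in WT libraries (-1.35, edgeR adjusted p = 0.272). The summed macrophage level overlapped, at 396 to 435 CPM in KO and 289 to 644 CPM in WT libraries. The part of white cells in the values of Ets1 and Fli1 was not tested.

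Markers of endoderm bear on Sox17. All 12 tested yolk sac visceral endoderm genes of 13 had negative log2 fold changes (median -2.48, 0 called by edgeR, 3 lower unadjusted, 1 called lower by DESeq2), and so had all 6 tested gut and definitive endoderm genes of 9 (median -1.43, 0 called by edgeR or DESeq2, 0 unadjusted). Foxa2, a factor that acts beside Sox17 in endoderm, was read at 7.18, 0 and 0 CPM in KO replicates 1, 2 and 3, against 17.1, 19.0 and 19.4 CPM in WT replicates 1, 2 and 3. Sox17 stood at 115 and 123 CPM in the KO libraries with 0 counts of Foxa2. Afp, alpha-fetoprotein, stood at 76.4, 3.53 and 4.49 CPM in KO replicates 1, 2 and 3, against 173, 212 and 342 CPM in WT replicates 1, 2 and 3, and Trf, transferrin, at 25.6 ± 8.87 CPM in KO and 98.97 ± 57.0 CPM in WT libraries. Krt8, a keratin of simple epithelia, was read at 59.2, 2.60 and 1.78 CPM in KO replicates 1, 2 and 3, against 65.5, 81.7 and 21.9 CPM in WT replicates 1, 2 and 3. Pdx1, of pancreas and foregut, had 0 counts in all 6 libraries. Without KO replicate 1 the yolk sac and gut medians were -6.61 and -6.79, and with KO replicate 1 alone they were -0.98 and 0.035. The gut median was -0.88 without KO replicate 2 and -0.89 without KO replicate 3. The part of endoderm in the values of Sox17 was not tested.

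**Figure D4:**
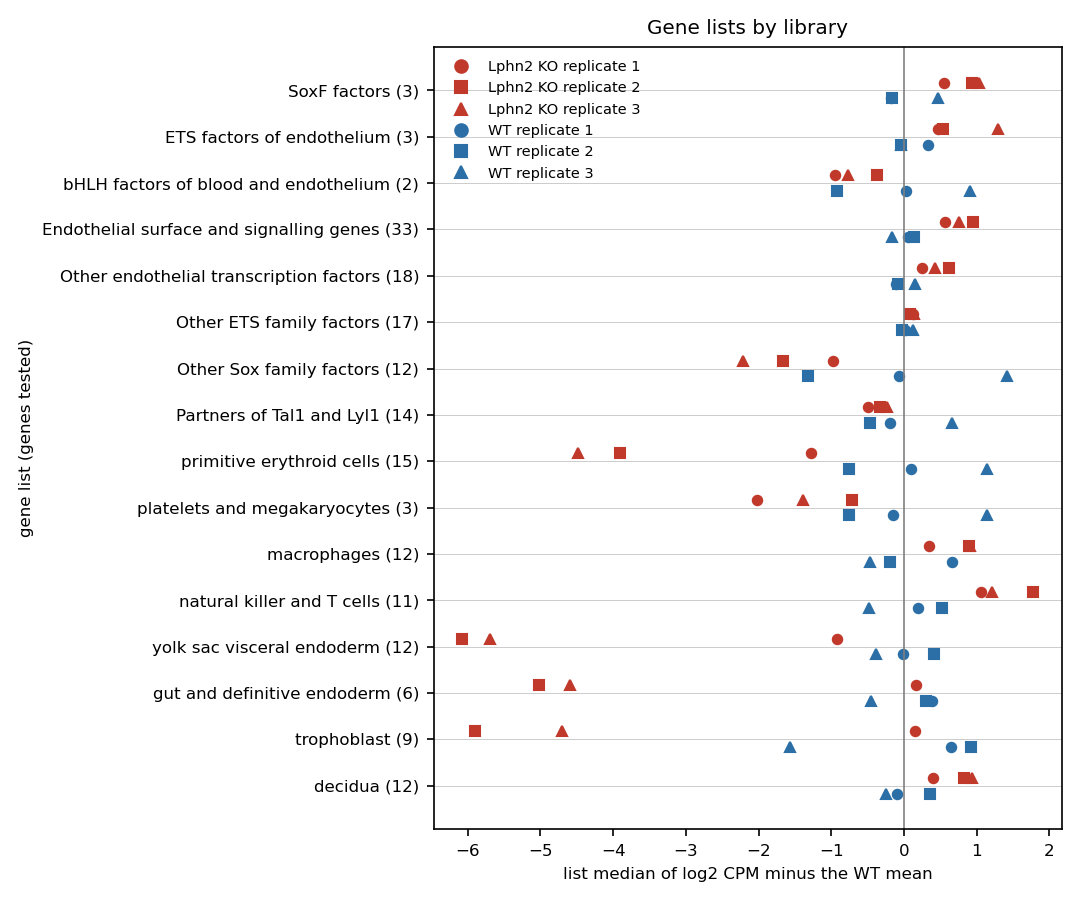
Median over each gene list of log2 CPM minus the WT mean of the gene (x axis), for each library, with the lists and their numbers of tested genes on the y axis. Red symbols are Lphn2 KO and blue symbols WT libraries, marked by replicate number. The endothelial surface and signalling list lies at 0.56 to 0.95 in KO and -0.17 to 0.13 in WT libraries, while the yolk sac, gut and trophoblast lists lie at -6.07 to -4.59 in KO replicates 2 and 3.

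The remaining tissues give the frame in which the members were read. All 9 tested trophoblast genes of 12 had negative log2 fold changes (median -1.66, 0 called by edgeR or DESeq2, 0 unadjusted), with Tpbpa of the spongiotrophoblast at 64.7, 0.400 and 2.00 CPM in KO replicates 1, 2 and 3, against 170.3, 206 and 36.4 CPM in WT replicates 1, 2 and 3, and Prl3b1, placental lactogen, at 13.6, 0 and 0.214 CPM in KO, against 85.5, 68.3 and 1.62 CPM in WT. Of 12 decidual genes, 7 had positive and 5 negative log2 fold changes (median 0.71, and 0.33 with KO replicate 1 alone), with 0 called by edgeR, 6 higher and 3 lower unadjusted, and 5 called higher and 3 lower by DESeq2. Erv3, placed on that list beside Prl8a2, stood at 282 ± 201 CPM in KO and 2479 ± 856 CPM in WT libraries (log2 fold change -3.14, edgeR adjusted p = 0.165). The rest of the list, named after its values were seen, was mixed. Prl3c1 had all KO libraries below all WT libraries (log2 fold change -3.70, edgeR adjusted p = 0.177). Groups overlapped for Hand2, Alpl and Igfbp1, with log2 fold changes of 0.53, -1.12 and -1.65. Des, Bmp2, Wnt4, Pgr, Hoxa10 and Hoxa11 had all KO libraries above all WT libraries. Des, the intermediate filament desmin, stood at 3027 ± 878 CPM in KO and 1197 ± 283 CPM in WT libraries (1.34, edgeR adjusted p = 0.166). Bmp2, a signal of decidualization, stood at 317 ± 62.0 CPM in KO and 139 ± 45.1 CPM in WT libraries (1.19, edgeR adjusted p = 0.172), and Wnt4, Pgr, Hoxa10 and Hoxa11 had log2 fold changes of 1.27, 1.05, 1.05 and 0.89. All 5 tested cardiac muscle genes of 10 and all 7 tested neural progenitor genes of 10 had negative log2 fold changes (medians -2.90 and -3.05), with 0 called by edgeR, 5 of each lower unadjusted, and 5 and 3 called lower by DESeq2. WT replicate 3, where Tal1 and Lyl1 were highest, also held the highest summed cardiac level (358 CPM, against 40.8 and 89.5 CPM in the other WT libraries) and neural level (1313 CPM, against 82.9 and 187 CPM). Myl4 and Actc1, of cardiac muscle, and Pax6, of eye and forebrain, stood at 0.809 ± 0.469, 1.22 ± 0.508 and 2.76 ± 0.532 CPM in KO, and at 6.17 ± 4.60, 35.5 ± 49.2 and 13.4 ± 6.98 CPM in WT libraries. Without KO replicate 1 the trophoblast and neural medians were -6.13 and -6.11, and without WT replicate 2 the cardiac median was -5.16. The part of these tissues in the values of the members was not tested.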

How the data were processed

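Per the labels' protocols, Trizol RNA (500 ng) of each sample labelled as whole embryo was made into a Lexogen QuantSeq library. For every library the authors deposited raw counts of tags by gene symbol, not normalized. Bowtie2, edgeR and mm10 are named in the submitters' processing notes, and for annotation, counting program and strand handling nothing was found in those sources.

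Low genes were removed by edgeR 4.0.16 (filterByExpr, minimum count 10), and the rest were scaled by TMM and tested with the quasi-likelihood test over all 6 libraries without covariates, two-sided, with Benjamini-Hochberg adjustment over all 13848 genes and a threshold of 0.05. DESeq2 1.42.0 and limma 3.58.1 (voom) were alternatives, in R 4.3.3, beside other scalings, filters, counts divided by their common divisor, 1 symbol per identical set, a replicate block and each library left out. Log2 CPM had a prior count of 2. Single values were compared by exact permutation with scipy 1.17.1 in Python 3.11.15. Levels are mean ± SD, and SE belongs to log2 fold changes of KO over WT. Nothing in the labels says that samples of a group came from separate embryos or litters, so the tests weigh only the spread among these 6 samples, possibly technical in part. Intervals for counts of 0 use 3 counts and cover counting error only. A description code starts with 32 for WT replicate 1 and 45 for the others; its meaning is not stated.

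The members and gene lists were chosen with earlier results of these data known, and lists are described by counts and medians only. Named were all members, Adgrl2 and, per list, up to 4 genes past the threshold or else the 2 with the smallest p. Nfix, Csf1r, Mrc1, Nrp2, Apln, Kdr, Flt1, Flt4, Pecam1 and the decidual genes other than Prl8a2 and Erv3 were added after their values were seen. For each member, the 2 genes most like it were taken from genes averaging at least 5 CPM. Positions are from GENCODE M21 on mm10, and promoter windows from RefSeq.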

Additional observations from a re-analysis of the deposited data

How the results depend on the processing

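All 8 tested members kept the sign of their log2 fold change, and 0 passed the threshold, under each of 17 alternatives in which they could be tested, 134 values in all. The counts over all genes, 0 higher and 7 lower in edgeR, became 470 and 387 with DESeq2, and the lower count became 0 with 1 symbol kept per identical set, 0 with the replicate block and 0 with KO replicate 1 alone against WT, a setting chosen after seeing the data. With a library left out, the counts ranged from 0 to 252 higher and from 0 to 466 lower, the greatest without KO replicate 1. They were 0 lower without KO replicate 2, KO replicate 3 or WT replicate 1, and 11 without WT replicate 2. Relative to the endothelial list, the difference for Ets1 turned to 0.18 with Cdh5, Pecam1 and Tie1 alone and to 0.053 and 0.12 without KO replicate 2 and WT replicate 1, within -0.21 to 0.12 over the libraries left out. That for Fli1 turned to -0.065 without KO replicate 3 (range -0.065 to 0.41) and that for Erg to -0.0982 without WT replicate 2 (range -0.0982 to 0.89). The log2 fold change of Krt8 turned to 0.089 with KO replicate 1 alone. Of 305 list medians under an alternative 34 moved, as did 25 of 305 counts of list members past the threshold, every such count from 0 and with DESeq2 or without KO replicate 1. The yolk sac, gut and trophoblast medians were -3.98, -2.91 and -3.35 with limma-voom, and -4.04, -3.17 and -3.30 with the replicate block. The endothelial surface list had 13 members past the threshold with DESeq2 and 6 without KO replicate 1. Among the members, Adgrl2 and the genes named by smallest p in each list, 20 values passed with DESeq2 and 12 without KO replicate 1. The cause was not tested. The labels do not say whether the replicate numbers pair the libraries. The deviations of same-numbered libraries from their group means had correlations of 0.127, -0.024 and 0.071 across genes. Those of differently numbered libraries ran from -0.107 to 0.067. With 3 libraries per group, these values cannot decide whether same-numbered libraries share a litter or batch. Depth limited Sox7, with 5 to 38 counts, and Etv2, with 0 to 20.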

Other observations

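For each member the 2 genes with the nearest profile across the 6 libraries were taken from 9544 genes, as a description. Likeness is the root mean square difference of centred log2 CPM. Nearest to Sox17 were AA467197 (0.0535) and Tnfaip2 (0.0702), to Sox18 Tmem106c (0.215) and Mgst1 (0.318), and to Sox7 Zfp280c (0.0930) and Clasp2 (0.117). Nearest to Erg were Hps5 (0.302) and Arhgap25 (0.303), to Fli1 Nat14 (0.0697) and C1galt1 (0.0760), and to Ets1 Tmem220 (0.0300) and Naaa (0.0454). Nearest to Tal1 were Ubtd2 (0.120) and Adamts15 (0.197), and to Lyl1 Trim24 (0.150) and Slc8a1 (0.159). AA467197, the nearest to Sox17, stood at 209, 281 and 294 CPM in KO replicates 1, 2 and 3, against 125, 201 and 107 CPM in WT replicates 1, 2 and 3, high in WT replicate 2 among the WT libraries as Sox17 was.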
